A study of Mus musculus with 2 samples.

Results

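The Gzma-low NK or ILC1-like cells were tumour-infiltrating leukocytes with reads of Ncr1, the gene of the activating receptor NKp46, and little Gzma, the gene of granzyme A. They were selected on their own expression values, in counts per 10000 reads of the cell (CP10k). A cell had Ncr1 at 1 or more, Gzma under 20, Trac under 2, Cd3e under 1, Lyz2 under 5 and C1qa under 1 CP10k, with at most 25% of its reads in mitochondrial genes. Of 7732 kept cells of 14 mice, 283 were chosen by these values, 13 to 29 per mouse with a median of 19. The 631 cells that passed the same gate with Gzma at 20 CP10k or more are called Gzma-high cells here.

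Colon26, a line of mouse colon carcinoma, was grown under the skin of wild-type BALB/c mice, and CD45+ cells of each tumour were taken on day 10 after inoculation and marked by hashtag antibodies for BD Rhapsody sequencing. Control mice (n = 3), for which the labels list no injection, were set beside 3 treated groups. The minP1 mice (n = 4) had 0.08 µg of minP1, an immunostimulatory peptide of the nucleosome protein HMGN1, intraperitoneally on day 9. The PDL1 mice (n = 3) had 200 µg of anti-PD-L1 antibody (clone 10F.9G2), which blocks the ligand of the inhibitory receptor PD-1, on days 4 and 8, and the minP1_PDL1 mice (n = 4) had both. The age of the mice was not given in the sources used here. The labels also call the cells intestinal, although the tissue is the implanted tumour. They speak of separate runs without giving a run for any mouse, so run and group cannot be told apart where runs differed.

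Natural killer (NK) cells and group 1 innate lymphoid cells (ILC1) are lymphocytes without a rearranged antigen receptor that share NKp46 and the transcription factor T-bet. NK cells kill through perforin, which opens the target membrane, and through granzymes, proteases that then enter the cell. Maturing NK cells express Eomes, perforin and the integrin Itgam. ILC1 are tissue-resident cells known for the integrin Itga1, TRAIL (Tnfsf10) and cytokine output, and early NK cells for Tcf7 and Kit. In tumours, the chemokine XCL1 attracts cross-presenting dendritic cells and CCL5 attracts T cells and dendritic cells.

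Values are reads that were not collapsed to molecules. All tests used the mouse as the unit, not the cell. Kept reads per mouse ran from 26007834 to 51230461, and 583819 to 1475333 of the reads of a mouse lay in its Gzma-low cells. No barcode was shared between mice. Over all Gzma-low cells, the 12 fixed genes of NK cells and ILC1 summed to 7191 CPM (reads of a gene scaled to a common library total), against 8149 in Gzma-high cells and 2853 in 923 T cells gated on Trac and Cd3e. T cell genes (9) summed to 804, 724 and 4041 CPM in these 3 classes. Macrophage genes (10) summed to 111 CPM, 118 CPM in Gzma-high cells and 7527 CPM in 178 macrophages gated on Lyz2 and C1qa. Of 6 B cell genes, 5 were at 0. The 7 genes of type 2 ILC, 1 of them (Il5) at 0, summed to 363 CPM, against 286 CPM in Gzma-high cells and 1378 CPM in T cells. The shared genes of NK cells and ILC1 were present, and B cell genes were low or at 0. The gate required Ncr1 and removed cells by Trac, Cd3e, Lyz2 and C1qa. The T cells and macrophages were gated on these last genes too. Low sums of T cell and macrophage genes were thus set in part by the selection and are no independent evidence. These lists alone did not tell NK cells from ILC1.

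Some genes of other lineages were also detected. A sum was taken over 53 fixed marker genes. They were those of B cells, macrophages, monocytes, neutrophils, dendritic cells, mast cells, basophils, tumour, stroma and erythroid cells. Cells with 20 CP10k or more in this sum are called cells of mixed lineage below. They made up 46 of 283 Gzma-low cells (16.3%) and 48 of 631 Gzma-high cells (7.61%). Their share of the Gzma-low cells ran from 0% in Control replicate 3 to 40.9% in minP1_PDL1 replicate 1. Neutrophil genes (6) summed to 850 CPM against 444 CPM in Gzma-high cells. In the Gzma-low cells of single mice they ran from 22.6 to 98.9 CPM in Control, 115 to 2730 in minP1, 632 to 1562 in PDL1 and 36.8 to 2034 in minP1_PDL1. All neutrophil genes were detected. Mast cell and basophil genes reached 1488 CPM in 1 minP1_PDL1 mouse, against 127 CPM over all Gzma-low cells. Dendritic cell genes (8) summed to 409 CPM, against 237 CPM in Gzma-high cells. They reached 2137 CPM in 1 Control mouse, and at most 226 CPM in minP1, 540 in PDL1 and 370 in minP1_PDL1. Tumour and stroma genes (8) were highest in a Control mouse too, at 390 CPM, and reached 234 CPM in minP1_PDL1.

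The selecting values were as follows. Ncr1 had a median of 9.18 CP10k per Gzma-low cell and 8.60 per Gzma-high cell. Gzma was at 0 in 124 of the 283 cells (43.8%), with a median of 0.196 CP10k, against a median of 100.5 in Gzma-high cells. Of 1711 kept cells with Ncr1, 797 had been removed by Trac (376 cells), Cd3e (186), Lyz2 (596) or C1qa (270), some by more than 1 gene. Sequencing depth was read beside Gzma, and its part in the low values was not tested. Median reads were 34512 in cells with no Gzma read, 43506 with 0 to 5 and 39026 with 5 to 20 CP10k. Gzma-low cells had more reads than Gzma-high cells, with a mouse mean of the median per cell of 37979 ± 6333 against 31540 ± 6017 (SD, n = 14), in 13 of 14 mice (exact paired permutation test, two-sided, adjusted p = 0.00055). Genes per cell were also higher, 2068 ± 201 against 1775 ± 203 in 13 of 14 mice, and the mitochondrial share was 5.77% against 5.18% (adjusted exact p = 0.00183, 12 of 14 mice).

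The first comparison asked which other genes differed between Gzma-low and Gzma-high cells of the same mouse. Reads were summed per mouse and class and fitted with edgeR's quasi-likelihood test with the mouse as a block, outside the 6 gate genes. Gzma-low cells had higher Xcl1, Rora, Kit, Tcf7, Tnfsf10, Cd226 and Ly6c2, and lower Ccl5, Gzmb, Prf1, Eomes and Itgam. Of 7885 genes tested, 24 were higher (0.304%) and 28 lower (0.355%) at an adjusted p under 0.05. The balance moved with the processing: DESeq2 gave 86 higher and 209 lower, no filter on low counts 38 and 105, and RLE normalization 28 and 23. The 2 classes were cut from a single range of Gzma in the same cells, so any gene that varies with Gzma from cell to cell differs by that cut. The values describe which genes went with low Gzma and do not show a separate cell type. Xcl1, Klrc1 and Gzmc had been proposed as markers of these cells from the same data, so their differences are no independent evidence. Adjusted p-values below are those of this fit. The median log2 change of all genes was -0.17, so a gene with that value moved with the bulk of genes.

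Among the killing genes, 2 of 9 tested granzyme and perforin genes were lower and none was higher, with a list median of -0.40 on the log2 scale. Prf1, which encodes perforin, was at 135 CPM in the lowest, 329 in the median and 638 in the highest of 14 mice in Gzma-low cells, and at 661, 779 and 1034 CPM in Gzma-high cells. Every mouse was lower in Gzma-low cells and the 2 ranges did not overlap (log2 change -1.40 ± 0.14 SE, adjusted p = 2.5e-06). Gzmb, the gene of granzyme B, was at 1405, 1694 and 3051 CPM against 2996, 4047 and 6423 CPM. It was lower in all 14 mice, by -1.21 ± 0.09 on the log2 scale (adjusted p = 3e-08), and the ranges overlapped through 1 mouse, PDL1 replicate 3. Gzmc, a granzyme of activated lymphocytes, was not lower. It was at 473, 3083 and 7396 CPM against 189, 2318 and 4950 CPM, was higher in 10 of 14 mice and did not pass (log2 change 0.53 ± 0.37, adjusted p = 0.778). With every cell thinned to 10000 reads its log2 change was 1.03 with an adjusted p of 0.0279. Serpinb9b, a serpin gene of the family that inhibits granzyme B, was lower in all 14 mice, at 0, 12.8 and 117 CPM against 166, 330 and 422 CPM. Serpinb6b was also lower, by -0.65 ± 0.11 (adjusted p = 0.00153).

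The promoters of Xcl1, Gzmb and Prf1 are shown because these 3 genes carry the contrast between a chemokine that was higher and killing genes that were lower. They are the 250 bases before the RefSeq start in GRCm38.p6, 5′ to 3′ on the gene's strand, at chr1:164935523-164935772 (Xcl1, minus strand), chr14:56262335-56262584 (Gzmb, minus strand) and chr10:61297586-61297835 (Prf1, plus strand). Capitals mark matches to a T-box core (TCACAC or GTGTGA) and to a RUNX core (TGTGGT or ACCACA), the motifs of the families of Eomes and Runx3.
Xcl1: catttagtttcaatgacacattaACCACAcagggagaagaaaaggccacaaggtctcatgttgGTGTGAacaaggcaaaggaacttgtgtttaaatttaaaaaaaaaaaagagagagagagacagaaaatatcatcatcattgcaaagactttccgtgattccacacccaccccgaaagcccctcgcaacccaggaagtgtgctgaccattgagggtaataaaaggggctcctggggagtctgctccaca
Gzmb: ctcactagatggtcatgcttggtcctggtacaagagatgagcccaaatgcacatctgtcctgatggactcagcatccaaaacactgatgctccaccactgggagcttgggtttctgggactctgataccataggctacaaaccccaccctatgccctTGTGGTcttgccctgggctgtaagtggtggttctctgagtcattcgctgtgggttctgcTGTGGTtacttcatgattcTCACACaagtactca
Prf1: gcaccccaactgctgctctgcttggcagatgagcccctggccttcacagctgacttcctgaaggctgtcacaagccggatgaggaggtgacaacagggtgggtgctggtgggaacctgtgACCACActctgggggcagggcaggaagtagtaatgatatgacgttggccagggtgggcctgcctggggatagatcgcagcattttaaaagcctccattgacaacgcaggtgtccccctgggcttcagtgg
Xcl1 held 1 T-box and 1 RUNX match, Gzmb 1 and 2, and Prf1 0 and 1. Over 27025 promoters of the same length, 12.2% held the T-box core and 14.2% the RUNX core. A match describes letters only. Matches to TCF/LEF (CTTTGA, in 14.0% of promoters) and ROR (AGGTCA, in 13.8%) were searched on both strands and were not in these 3 windows. Ccl5 had no matched promoter.

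Among 14 cytokine and death ligand genes, 2 were higher and 2 lower, with a list median of 0.21. Xcl1 was higher. Its level ran from 996 through a median of 2489 to 4393 CPM in Gzma-low cells, and from 491 through 1193 to 2113 CPM in Gzma-high cells. Gzma-low cells were higher in 13 of 14 mice (log2 change 1.07 ± 0.18, adjusted p = 0.00158), and the ranges overlapped. Xcl1 was found in 90.5% of Gzma-low and 66.9% of Gzma-high cells. With cells thinned to 10000 reads, which left out 9 and 15 shallower cells, the shares were 88.7% and 62.5%, against 24.8% of T cells and 26.0% of macrophages. Tnfsf10, which encodes the death ligand TRAIL, was at 50.3, 94.9 and 151 CPM against 4.06, 20.5 and 86.4 CPM, higher in 14 of 14 mice. With Ncr1 at 5 CP10k or more it did not pass (adjusted p = 0.0960). Ccl5 showed the widest gap of the chemokines. It was at 96.7, 425 and 1285 CPM in Gzma-low cells and at 1280, 2122 and 3887 CPM in Gzma-high cells, lower in all 14 mice (log2 change -2.47 ± 0.16, adjusted p = 3.4e-09). Ccl4, a macrophage inflammatory protein, was lower in 13 of 14 mice at -1.53 ± 0.30 (adjusted p = 0.00903). Without the mouse block its adjusted p was 0.0738. Ifng, the gene of interferon gamma, was at 19.8, 97.6 and 340 CPM against 65.4, 144 and 290 CPM, higher in 6 mice and lower in 8, and did not pass (adjusted p = 0.778).

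**Figure D1:**
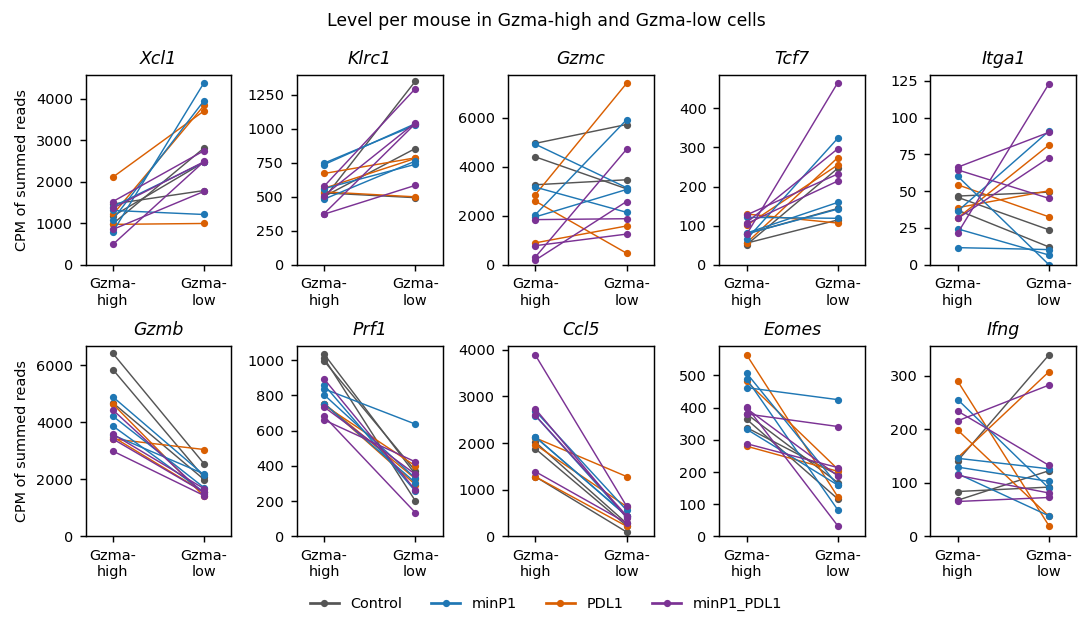
CPM of summed reads in Gzma-high and Gzma-low cells for 10 genes, with each line joining the values of 1 of 14 mice and colours giving the group. Prf1, Ccl5, Gzmb and Eomes are lower in Gzma-low cells in every mouse, Xcl1 is higher in 13 of 14, and Itga1 lines cross in both directions.

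Of 23 transcription factors tested, Rora and Tcf7 were higher and Eomes, Irf8, Runx3 and Klf2 lower, with a list median of -0.13. Rora, a nuclear receptor of innate lymphoid cells, was at 154, 344 and 599 CPM against 6.01, 70.4 and 206 CPM. It was higher in 14 of 14 mice (log2 change 2.38 ± 0.33, adjusted p = 0.00025). Tcf7, which encodes TCF1, a factor of early NK and T cells, was at 107, 223 and 466 CPM against 51.0, 80.1 and 130 CPM, higher in 12 of 14 mice at 1.22 ± 0.22 (adjusted p = 0.00509). With Gzma under 10 CP10k its adjusted p was 0.0518. Eomes, the T-box factor of NK cells, was at 33.1, 178 and 424 CPM against 280, 389 and 564 CPM. It was lower in all 14 mice at -1.30 ± 0.23 (adjusted p = 0.00374), with overlapping ranges, and was still found in 40.3% of Gzma-low cells. After thinning, the share was 32.8%, against 60.6% of Gzma-high cells, 8.17% of T cells and 14.8% of macrophages. Tbx21, which encodes T-bet, had a mean of 111 CPM against 96.9 CPM (adjusted p = 0.965). Klf2, a factor of recirculating lymphocytes, and Runx3 were lower at -0.86 and -0.60 (adjusted p = 0.01 and 0.0074).

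The marker lists of maturation were read next. Of 12 tested genes of mature circulating NK cells, Eomes, Irf8, Itgam, Klf2 and Klra9 were lower and Ly6c2 was higher, with a list median of -1.60. Itgam, the integrin CD11b, was at 0, 47.6 and 229 CPM against 59.7, 169 and 390 CPM, lower in all 14 mice (-2.12 ± 0.40, adjusted p = 0.00627). It did not pass with Gzma under 10 CP10k (adjusted p = 0.0508) or without the mouse block (0.109). Klrg1, an inhibitory receptor of terminally mature cells, was lower in all 14 mice by value, at 0, 54.9 and 165 CPM against 82.0, 171 and 283 CPM, but missed the threshold (adjusted p = 0.0666). Ly6c2, a surface protein of mature and activated lymphocytes, ran against its list. It was at 528, 1129 and 2012 CPM against 144, 257 and 630 CPM, higher in all 14 mice (1.92 ± 0.19, adjusted p = 2.2e-06). Its near copy Ly6c1 had 390, 792 and 1388 CPM against 109, 183 and 445 CPM. The split of reads between the 2 copies is uncertain.

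Of 9 immature NK genes, Kit, Emb and Tcf7 were higher and none was lower, with a list median of 0.58. Kit, the receptor of stem cell factor, was at 26.4, 159 and 319 CPM against 11.4, 30.7 and 49.4 CPM, higher in 13 of 14 mice (2.29 ± 0.34, adjusted p = 0.000451). Emb, which encodes embigin, was higher in 13 of 14 mice at 1.19 ± 0.15. Thy1 had nearly the same mean, 595 against 594 CPM, and Lef1 was -1.25 ± 0.43 without passing. Of 13 tested ILC1 and residency genes, Tnfsf10 and Tmem176b were higher and none was lower, with a list median of 1.19. Tmem176b, a membrane protein of innate lymphoid and dendritic cells, had a median of 144 CPM against 15 CPM in Gzma-high cells and was higher in 14 of 14 mice (3.17 ± 0.47, adjusted p = 0.00048). The ILC1 integrin Itga1 was at 0, 47.2 and 123 CPM against 11.6, 37.9 and 66.3 CPM. It was higher in 7 mice and lower in 7 (-0.15 ± 0.48, adjusted p = 0.968). Its sign turned under some settings, for example with Gzma under 40 CP10k (0.04). Cxcr6 and Cd200r1 had log2 changes of 1.83 ± 0.76 and 1.90 ± 1.18 and did not pass.

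Of 15 activating receptors and adaptors, 1 passed, with a list median of -0.18. It was Cd226, the activating receptor DNAM-1, at 126, 283 and 470 CPM against 25.8, 81.1 and 211 CPM. It was higher in 14 of 14 mice (1.60 ± 0.18, adjusted p = 1.6e-05). Of 16 inhibitory receptors and checkpoints, 1 was higher and 1 lower, with a list median of 0.36. Klrc1, which encodes NKG2A, was higher, at 494, 822 and 1352 CPM against 373, 533 and 748 CPM in 12 of 14 mice (0.61 ± 0.12, adjusted p = 0.0115). Klra7, an Ly49 receptor, was lower at -1.78 ± 0.33 and did not pass with Ncr1 at 5 CP10k or more (adjusted p = 0.206). Klra3 was lower at -1.63 ± 0.20. The Klra genes are a family of near copies that differ between mouse strains, and reads of BALB/c mice were counted on a C57BL/6 reference, so the values of its members are uncertain. None of 13 cytokine receptors passed, beside 52 of 7885 genes in all. Of 12 genes shared by NK cells and ILC1, Klri2 and Nkg7 were lower (-0.91 ± 0.15 and -0.52 ± 0.10). Trdc, a T cell receptor delta gene, was at 28, 122 and 204 CPM against 190, 265 and 401 CPM.

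Further genes that passed and were named for their small p were Krt83, Bcl2a1d, Amica1 and Nrarp. Krt83, a keratin gene, was at 42.9, 150 and 385 CPM against 0, 13.1 and 67.0 CPM. Bcl2a1d, a survival gene of the Bcl2 family with near copies, was at 176, 274 and 381 CPM against 48.2, 102 and 159 CPM, without overlap. Amica1, an adhesion molecule, was higher in all 14 mice (1.66 ± 0.20), and Nrarp, a Notch target, lower in all 14 (-1.39 ± 0.20). None of 27 cell cycle, 24 type I interferon, 23 immediate early, 16 hypoxia and glycolysis or 11 TGF-beta pathway genes passed. Of all 7885 genes 52 passed, so at that share lists of this size would hold few calls or none. The list medians were -0.85, 0.17, -0.05, -0.20 and -0.25. Of the cell cycle genes, 1 of 27 had a positive log2 change, against 2609 of 7885 genes in all. Pcna, the replication clamp, had -0.64 ± 0.16 (adjusted p = 0.0853).

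**Figure D2:**
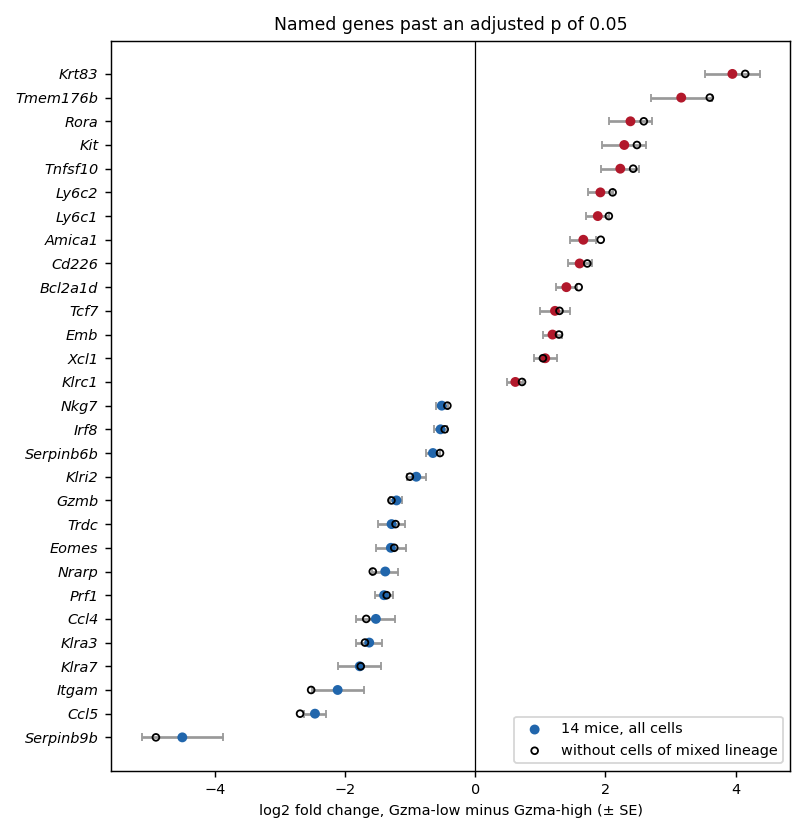
Log2 fold change of Gzma-low minus Gzma-high cells for the named genes past an adjusted p of 0.05, with bars of 1 SE over 14 mice and open circles for the fit without cells of mixed lineage. Krt83 (3.95) and Serpinb9b (-4.51) lie at the ends, and the open circles lie on the same side of 0 as the filled points.

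Gzma itself was a range, and the genes were followed across it over pooled cells of all mice, as a description without a test. From cells with no Gzma read (124) through 0 to 5 (93), 5 to 20 (66), 20 to 50 (112), 50 to 100 (201) and 100 CP10k or more (318), Xcl1 was at 2912, 2573, 1954, 1604, 1167 and 1004 CPM. Rora went down over the same 6 classes, from 497 CPM with no Gzma read through 225 CPM in the class of 5 to 20 to 35.0 CPM in the highest. Kit was at 249 CPM in the lowest class and 17.6 CPM in the highest. Ccl5 was at 393, 297, 645, 1367, 2054 and 2549 CPM, and Prf1 at 267, 271, 518, 551, 751 and 1032 CPM. These levels differed between several neighbouring classes and not at the threshold alone. Ly6c2 was at 845 CPM in the class of 5 to 20 and 371 CPM in that of 20 to 50, on either side of the threshold. Gzmc was at 4066 CPM in the lowest class, 2155 CPM between 50 and 100 and 3198 CPM in the highest, so it followed no single direction.

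Just inside the threshold, 42 cells with 10 to 20 CP10k of Gzma had 1614 CPM of Xcl1, and just outside it 33 cells with 20 to 30 CP10k had 1569 CPM. Eomes was at 294 CPM on both sides. Tcf7 was at 241 CPM inside and 43.9 CPM outside, Rora at 297 and 160, Ccl5 at 644 and 1267, Itgam at 47.3 and 215, and Gzmb at 2092 and 1611 CPM. Xcl1 and Eomes thus had like levels on both sides of the threshold, and Gzmb was higher inside it.

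**Figure D3:**
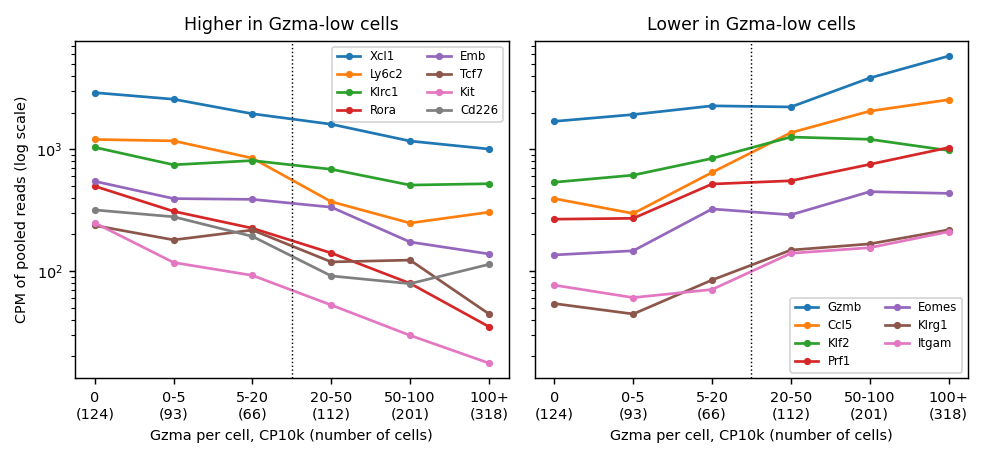
CPM of pooled reads on a log scale for 15 genes across 6 classes of Gzma per cell, with the number of cells in each class and a dotted line at 20 CP10k. Xcl1, Rora, Kit and Ly6c2 are higher towards the left, and Ccl5, Prf1, Gzmb and Eomes higher towards the right.

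The Gzma-low cells varied among themselves, and they were divided by Gzmc. At a limit of 10 CP10k, chosen with the gene after the values were seen, 77 cells (27.2%) had Gzmc at or above it and 206 below. They came from all 14 mice, as 7.69% of the Gzma-low cells in PDL1 replicate 1 to 60.0% in Control replicate 3. Their median depth was 56565 reads per cell against 33388, so genes found in few cells are more readily seen in them, and the part of depth was not tested. The following are pooled levels with the number of mice that share the direction, without a test. A single mouse held only 1 (PDL1 replicate 1) to 9 cells with Gzmc at or above the limit, so its direction rests on few cells. Gzmd, Gzme and Gzmf, of the same granzyme cluster on chromosome 14, went with Gzmc. Gzmb and Gzmg of that cluster are not described here. Gzmd was at 974 against 58.9 CPM (higher in 11 of 14 mice, lower in 1), Gzme at 457 against 35.7 CPM (11 of 14) and Gzmf at 1436 against 4.33 CPM (10 of 14). These genes are close in sequence, and the split of reads among them is uncertain. Gzmc lies at chr14:56231441-56234656 and Gzmf at chr14:56205263-56211417 of GRCm38, both on the minus strand.

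Further genes were named after their values were seen, from a deeper and smaller set of cells, so they are single values and no theme. Il2ra, the alpha chain of the interleukin 2 receptor, was at 173 against 57.9 CPM (10 of 14 mice), Thy1 at 889 against 431 CPM (12 of 14), Prf1 at 489 against 243 CPM (10 of 14) and Kit at 240 against 114 CPM (10 of 14). Klrg1 was at 115 against 26.4 CPM (9 of 14) and Pdcd1, which encodes PD-1, at 89.5 against 18.7 CPM (7 of 14). Other genes were at higher levels in the cells with less Gzmc. Il7r, the interleukin 7 receptor, was at 87.8 against 18.8 CPM (11 of 14 mice), Klf4 at 526 against 120 CPM (13 of 14), Cxcr4 at 276 against 84.5 CPM (13 of 14) and Nr4a1 at 1000 against 324 CPM (12 of 14). Ccl5 was at 575 against 135 CPM and Tcf7 at 260 against 119 CPM, both in 12 of 14 mice. Xcl1 was at 2831 CPM in the cells with less Gzmc and 2021 CPM in those with more (9 of 14).

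**Figure D4:**
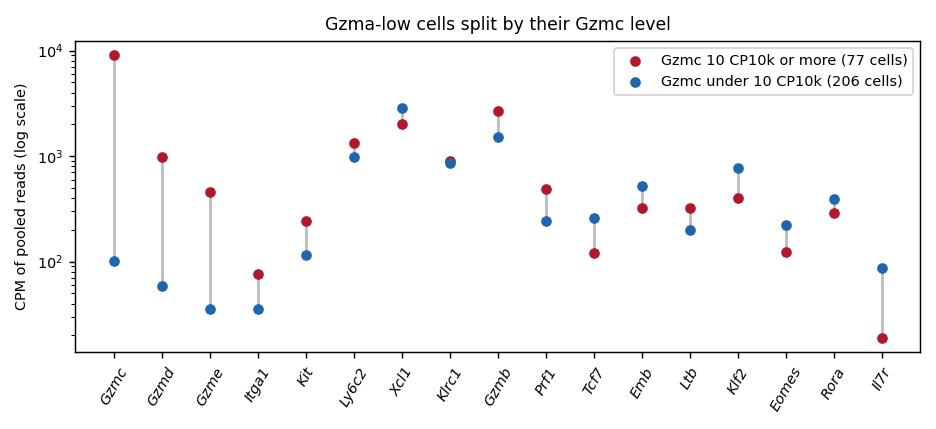
CPM of pooled reads on a log scale in Gzma-low cells with Gzmc of 10 CP10k or more (77 cells) and under it (206 cells) for selected genes. Gzmd and Gzme lie higher in the first set, and Il7r and Tcf7 higher in the second.

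The next comparison asked whether treatment changed how many of these cells were found. Gzma-low cells made up 3.93%, 4.33% and 2.99% of kept cells in the Control mice, 3.37%, 2.85%, 3.73% and 3.74% in the minP1 mice, 2.69%, 3.65% and 2.98% in the PDL1 mice and 3.95%, 4.17%, 3.29% and 5.28% in the minP1_PDL1 mice. The ranges of all 4 groups overlapped, and the group means were 3.75 ± 0.68%, 3.42 ± 0.42%, 3.11 ± 0.49% and 4.17 ± 0.83% (SD). The 4 groups did not pass a permutation test of F (F = 1.85, p = 0.202). With Gzma under 10 CP10k they did (F = 4.05, adjusted p = 0.0139). The 5 pairs compared had differences from -0.644 to 1.07 percentage points, and none passed (two-sided exact permutation tests, adjusted p of 0.333 to 0.486). With 3 mice against 3 the smallest possible p was 0.1, and with 4 in a group 0.0286. After adjustment over the 5 pairs, a pair alone at these values could not pass, so these tests could not decide on a single pair. A share is relative to the other CD45+ cells recovered. Mice of a group are separate animals. The labels place the cells in 1 hashtagged library but also speak of separate runs without a run per mouse, so run and group cannot be told apart.

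As a share of the Ncr1-gated cells, cells of mixed lineage among them, the minP1_PDL1 mice had 33.8%, 31.0%, 33.3% and 45.3% Gzma-low cells. The Control mice had 30.6%, 31.1% and 28.3%, the minP1 mice 31.7%, 29.8%, 29.0% and 28.2%, and the PDL1 mice 27.7%, 29.3% and 24.6%. The minP1_PDL1 group lay highest, with minP1_PDL1 replicate 4 apart from the rest, and 31.0% in 1 of its mice was within the Control range. No pair passed an exact permutation test (adjusted p of 0.143 to 0.743). With so few mice a pair alone could not have passed after adjustment, so these tests could not decide on a single pair. The 4 groups differed by the permutation test of F (F = 3.38, p = 0.0128, adjusted over the 2 shares 0.0256). The difference did not pass with Gzma under 40 CP10k (adjusted p = 0.923), with Ncr1 at 5 CP10k or more (0.905), without cells of mixed lineage (0.858) or without any 1 of the Control or PDL1 mice (0.0741 to 0.145). It passed without minP1_PDL1 replicate 4 (adjusted p = 0.0353).

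**Figure D5:**
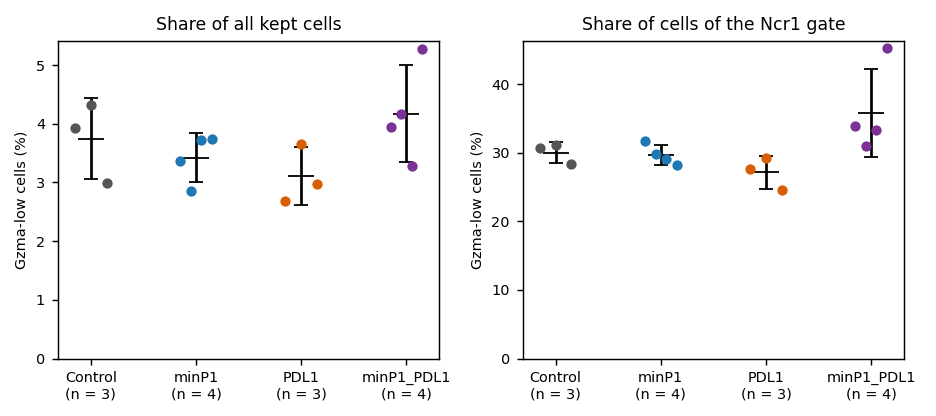
Gzma-low cells in percent of all kept cells (left) and of the Ncr1-gated cells (right), with 1 point per mouse and bars of mean ± SD for 4 groups of 3 or 4 mice. On the left the groups overlap between 2.69% and 5.28%, and on the right minP1_PDL1 replicate 4 stands at 45.3%.

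Within the Gzma-low cells, gene levels were compared between treatments over mice. Of 9608 genes tested outside the gate in each of 5 comparisons, none passed an adjusted p of 0.05 (0% called in each, edgeR). At an unadjusted p under 0.05 there were 347 for minP1, 506 for PDL1 and 400 for minP1_PDL1 against Control, 413 for minP1_PDL1 against minP1 and 593 against PDL1. DESeq2 called 4, 20, 19, 2 and 13 genes in the same order. With 13 to 29 cells per mouse and 3 or 4 mice per group, a change could be missed. The comparisons share mice, so their values are not independent of each other.

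By the rule for named genes, the 3 genes of smallest p were read in each comparison, and none passed. Against Control they held the myeloid genes Clec4d, S100a9, Cxcr2 and Ccl2, which had higher values, and Slc16a1 and Apaf1, which had lower ones. Clec4d, a myeloid C-type lectin, was at 0, 1.36 and 0 CPM in the Control mice. It was at 48.4, 84.6, 23.3 and 373 CPM in the minP1 mice, 71.9, 68.1 and 170 CPM in the PDL1 mice, and 216, 165, 240 and 22.2 CPM in the minP1_PDL1 mice. All treated mice were above all Control mice, and the adjusted p was 0.13, 0.252 and 0.0874 in the 3 comparisons. Groups without overlap were found for 4.92%, 9.69% and 5.93% of all tested genes in these comparisons. S100a9, an abundant neutrophil gene, was at 2.20 to 4.18 CPM in Control and 20.1 to 1374 CPM in minP1 mice. In the minP1_PDL1 mice it was at 808, 1173, 131 and 1.93 CPM, and replicate 4 was below every Control mouse. Cxcr2, the neutrophil chemokine receptor, was at 11.7, 11.5 and 20.9 CPM in Control and 207, 212 and 91.3 CPM in PDL1 mice. All 5 tested neutrophil genes had positive log2 changes in minP1, PDL1 and minP1_PDL1 against Control, with medians of 2.94, 4.63 and 5.40. Of 9612 genes in all, 4613, 4571 and 4838 had positive log2 changes. Of 5 macrophage and monocyte genes 4, 3 and 5 were positive, and of 3 dendritic cell genes 0, 1 and 0. Cells of mixed lineage were defined with S100a9 and Cxcr2 among the marker genes, and not with Clec4d. Without them, Clec4d had log2 changes of 4.75, -0.11 and 6.31, S100a9 1.03 for minP1, and Cxcr2 0.67 for PDL1, each with an adjusted p of 1.

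Slc16a1, which encodes the lactate transporter MCT1, was at 60.2, 14.2 and 50.6 CPM in the Control mice and at 1.61 CPM or less in every minP1 mouse (adjusted p = 1). Apaf1, a core gene of the apoptosome, was at 46.8, 79.3 and 51.7 CPM in the Control mice and at 0, 0 and 1.10 CPM in the PDL1 mice (adjusted p = 0.389). In the minP1_PDL1 mice it was at 12.0, 18.4, 22.4 and 91.9 CPM, above every PDL1 mouse (adjusted p = 0.651). Without cells of mixed lineage the log2 change of Apaf1 was -6.24 for PDL1 against Control (adjusted p = 0.946). Cisd3, a mitochondrial iron-sulfur protein, was at 0, 3.24 and 1.10 CPM in the PDL1 mice and 108, 61.1, 40.5 and 12.6 CPM in the minP1_PDL1 mice (adjusted p = 0.651). Between minP1_PDL1 and PDL1 mice, 5.67% of all tested genes had groups without overlap.

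The other genes of smallest p were chemokines and a protease known from macrophages and monocytes. Ccl2 was at 6.69, 3.39 and 4.40 CPM in the Control mice and 1159, 38.8, 548 and 644 CPM in the minP1_PDL1 mice (adjusted p = 0.483). Ccl7 was at 574, 1.94, 665 and 228 CPM in the minP1_PDL1 mice, against 4.98 to 27.2 CPM in minP1 and 2.20 to 12.0 CPM in PDL1 mice, so 1 of these 4 mice was below all mice of both groups. Ccl8 and Lgmn, which encodes legumain, had 1102 and 562 CPM in minP1_PDL1 replicate 1. They were at 1.66 CPM or less and at 1.10 to 4.69 CPM in the minP1 mice (adjusted p = 1 for both). That replicate also had the highest share of cells of mixed lineage, 40.9%. Without cells of mixed lineage the log2 change of Ccl2 against Control was 6.59, beside 6.94 with them. For Ccl7 it was 3.14 against minP1 and 5.14 against PDL1, beside 4.67 and 5.92, and none passed. Ccl8 and Lgmn had no value in that fit, so the part of these cells in their levels was not tested.

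The genes given as markers of the cells, Xcl1, Gzmc and Klrc1, overlapped between all 4 groups. Xcl1 was at 1791, 2818 and 2474 CPM in the Control mice and 2473, 4393, 3960 and 1213 CPM in the minP1 mice. It was at 3844, 3712 and 996 CPM in the PDL1 mice and 1770, 2752, 2491 and 2487 CPM in the minP1_PDL1 mice, and the 4 ranges overlapped. Gzmc varied widely within groups, at 473, 7396 and 1582 CPM in the PDL1 mice and 3466, 3097 and 5719 CPM in the Control mice. It was at 2139 to 5913 CPM in minP1 and 1251 to 4709 CPM in minP1_PDL1 mice. Klrc1 ran from 494 to 1352 CPM in Control, which spanned the range of each of the other groups. Tcf7 was at 114, 247 and 144 CPM in the Control mice and 214, 297, 466 and 232 CPM in the minP1_PDL1 mice (log2 change 0.87 ± 0.44, adjusted p = 1). Tnfsf10, one of the genes that were higher in Gzma-low cells, was at 50.3 to 74.4 CPM in the minP1_PDL1 mice, below every other mouse. It was at 89.5 to 137 CPM in Control, 74.8 to 151 CPM in minP1 and 94.2 to 112 CPM in PDL1 mice. Its log2 change against Control was -0.75 ± 0.42 and did not pass (adjusted p = 1). Groups without overlap were found for 5.93%, 2.76% and 5.67% of all tested genes in minP1_PDL1 against Control, minP1 and PDL1.

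Among the effector genes, Gzmb was at 2550, 2071 and 1997 CPM in the Control mice. In the minP1_PDL1 mice it was at 1497, 1546, 1434 and 1676 CPM, below every Control mouse, with a log2 change of -0.50 ± 0.23 that did not pass (adjusted p = 1). Ccl5 was at 232, 283 and 96.7 CPM in the Control mice and 440, 445, 410 and 565 CPM in the minP1 mice. It was at 1285, 642 and 220 CPM in the PDL1 mice and 289, 402, 449 and 651 CPM in the minP1_PDL1 mice. The minP1 and minP1_PDL1 mice lay above the Control mice, and PDL1 replicate 3 lay within them. None of these passed (log2 change 1.78 ± 0.49 for PDL1, adjusted p = 0.923; 1.18 and 1.15 for the other two, adjusted p = 1). Without cells of mixed lineage the log2 changes were 1.81, 1.00 and 0.62. Of all tested genes, 4.92% had no overlap between minP1 and Control mice, and 5.93% between minP1_PDL1 and Control mice. Prf1 ran from 135 to 638 CPM over all 14 mice and Ifng from 19.8 to 340 CPM, and both overlapped between every pair of groups. The 28 interferon response genes had medians of 0.04, 0.36 and 0.24 for minP1, PDL1 and minP1_PDL1 against Control, beside -0.03, -0.05 and 0.01 for all genes. None of them passed.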

How the data were processed

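Leukocytes of 14 tumours were read as 1 hashtagged BD Rhapsody library. Per the submitters' processing notes the authors used cutadapt 2.10, Bowtie2 2.3.4.1 and Seurat 2.3.4 with mm10. The table the authors deposited holds raw read counts for 22836 genes and 8262 barcodes. They are reads and not molecules: the median nonzero entry was 10, and 18.0% of nonzero entries were 1. Columns marked as doublets (141) or without a hashtag (6), 147 in all, were left out, as were 383 of 8115 barcodes over 25% mitochondrial reads. No doublet caller was run.

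The members, gene lists and markers were chosen with earlier results of these data known. Counts were summed per mouse and class (at least 10 cells) and tested with edgeR 4.0.16 (quasi-likelihood, TMM, filterByExpr, Benjamini-Hochberg adjusted p under 0.05, two-sided) in R 4.3.3. Gzma-low against Gzma-high cells had the mouse as a block. Treatment was fitted over all 4 groups. Shares used exact permutation of mice, or 100000 permutations of F, with scipy 1.17.1. The fits were tested on simulated data.

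Genes named were the 8 of smallest p in each direction with a mean of at least 50 CPM in 1 class, up to 4 per list by p, 10 fixed genes per mouse, and the 3 of smallest p per treatment comparison. Runx3, Klf2, Klra9, Tbx21, Thy1, Cxcr6, Cd200r1, Tnfsf10 by treatment and the genes of the Gzmc division were named after their values were seen. Alternatives were RLE normalization, DESeq2 1.42.0, no filter, no mitochondrial filter, Gzma limits of 10 and 40, Ncr1 at 5, thinning to 10000 reads, the replicate number as a block, and each mouse left out. Leaving out cells of mixed lineage was added after seeing the data. Gene positions are those of GENCODE M21, and promoters those of RefSeq, which matched 3 of 4 genes looked up. The labels state a cell count under the authors' own filter, which was not used here.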

Additional observations from a re-analysis of the deposited data

Results flagged for a closer look

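In Gzma-low cells of the minP1 mice, Itga1, the integrin of ILC1, was at 90.8 CPM in replicate 3, with the next mouse at 10.3 CPM. The gap to the next mouse was 0.886 of the range of the 4 mice, above Dixon's 95% critical value for 4 samples. Among 24 groups of 4 mice tested (12 measures in 2 groups), this was the 1 value that stood apart, and chance gives about 1 in 20. No cause was tested.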

How the results depend on the processing

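Of the 29 named genes past the threshold between Gzma-low and Gzma-high cells, 690 of 696 values under the alternatives kept direction and call, 6 lost the call and none reversed. The calls lost were those of Tnfsf10 and Klra7 with Ncr1 at 5, Tcf7 and Itgam with Gzma under 10, and Itgam and Ccl4 without the mouse block. Against 52 genes called, DESeq2 called 295, no filter 143 and thinning 83. Fits without the mouse as replicate block called 63, and leaving out a mouse gave 43 to 55.

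For treatment, where none passed, DESeq2 called 4, 20, 19, 2 and 13 genes and no filter 41, 43, 58, 24 and 38 (minP1, PDL1 and minP1_PDL1 against Control, minP1_PDL1 against minP1 and against PDL1), and leaving out a mouse 0 to 2, 0 to 2, 0 to 2, 0 to 1 and 0 to 1. With the replicate number as block they called 0 each. No pairing by number was seen: same-numbered mice correlated at -0.0045 on average, and 1 of 19 pairs was over 0.1. Mice of different numbers correlated at 0.0016 on average. The sums hold 13 to 29 cells per mouse, so a pairing could be missed.

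The share of kept cells passed with Gzma under 10 (F = 4.05, adjusted p = 0.0139). The gated share gave F = 0.171 with Gzma under 40, 0.581 with Ncr1 at 5, 0.963 without cells of mixed lineage and 2.52 to 5.11 with a mouse left out, and with the replicate number as block it had an adjusted p of 0.00904. Signs turned for minP1_PDL1 against Control with Gzma under 40 (-0.0247 percentage points), and with Ncr1 at 5 for minP1 (0.0162) and PDL1 (0.000214). Among genes that did not pass, Ier3 turned to -0.66 and Isg15 to -0.43 with Ncr1 at 5. With Gzma under 10, Isg15 was -0.0697 and Tgif1 -0.13. Itga1 was 0.0421 with Gzma under 40, 0.0494 thinned, 0.24 without the mouse block and -0.34 to 0.10 with a mouse left out (positive without minP1 replicate 2), and Clec4d in PDL1 was -0.11 without cells of mixed lineage. The cause was not tested. With Gzma under 10, 1 mouse had fewer than 10 cells and dropped out. The number of cells per mouse limits what treatment comparisons can show.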
